A study of Mus musculus with 18 samples.

Results

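Potassium channel genes, taken as every listed gene whose symbol starts with Kcn apart from 1 left out by the rule, were followed through the vascular RNA of 3 mouse tissues. The rule gave 72 genes of the 14068 listed in at least 1 tissue, 71 of them protein-coding and the other, Kcnq1ot1, a long non-coding RNA read from the strand opposite to Kcnq1. Of the 71, 54 encode pore-forming subunits, 8 encode silent voltage-gated subunits, which form channels only together with other subunits, and 9 encode auxiliary subunits. RNA came from mice of genotype Tie2-cre+; NuTRAP+, in which Cre recombination adds GFP to a ribosomal protein. The positive fraction is RNA pulled down with an antibody to GFP, and the input is a part of the same cleared lysate kept back before the pull-down. Every group carried both transgenes: the positive and the input fractions of choroid (scraped together with the retinal pigment epithelium), of retina and of brain, each with 3 biological replicates numbered 421, 953 and 960, for 18 libraries in all. The column labels of all 18 libraries also read WT, and what that marks is not given in the sources used here. Retina and choroid samples each pooled 2 eyes, a brain sample came from part of a dissected brain, and the age and sex of the mice are not given in the labels. The Tie2 promoter is also active in blood lineage cells, so the pulled-down RNA need not be endothelial alone.

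Potassium channels set the resting potential and shape the firing of neurons, and in vessels they carry hyperpolarization along the endothelium and into smooth muscle. Inward rectifiers, tandem-pore background channels and calcium-activated channels are the classes best known from endothelial cells, while most voltage-gated families are known mainly from neurons and muscle. Glia take up potassium through inward rectifiers, photoreceptors carry a voltage-gated current of their own in the inner segment, and the retinal pigment epithelium moves potassium across its apical membrane.

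Library depth, as the sum over listed genes, ran from 2649095 to 4587921 counts in choroid positive libraries and from 8807306 to 14484068 in their inputs. Retina ran from 6260958 to 11071373 in the positive fraction and from 15243098 to 21521130 in inputs. Brain positive libraries held 18618427 to 28277853 counts and the inputs 9596740 to 32064355. All 10 endothelial markers in the list used were called higher in the positive fraction of each tissue, with median log2 fold changes of 3.60 in choroid, 6.37 in retina and 5.48 in brain. Leukocyte and microglia markers were higher too, 6 of the 7 listed in choroid, 5 of 5 in retina and 7 of 7 in brain, and their summed level ran from 14430 to 21220 CPM, counts scaled to a fixed library total, in choroid positive libraries against 1520 to 2564 CPM in the inputs. All 4 mast cell markers were higher in choroid. In a tissue's bulk RNA, fewer cells of a type and less RNA per cell cannot be told apart. Brain input 960 stood apart from the other brain inputs, with a correlation across genes of 0.908 and 0.910 against 0.994 between 421 and 953, and choroid libraries 421 carried more oligodendrocyte RNA than the other replicates, so results that rest on these libraries are given with and without them.

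A table listed a gene only where all libraries of at least 1 fraction reached a raw value of 50. Brain listed 62 of the 72 potassium channel genes, retina 54 and choroid 29, and 22 were listed in all 3 tissues. Of all 14068 genes, brain listed 12919, retina 12369 and choroid 11718, and 10505 were listed in all 3. The minimum is a raw value, so listing also depends on depth, which was lowest in the choroid positive libraries. Retina and brain together, without choroid, listed 24, brain alone 13 and retina alone 6. Choroid was the lone tissue for Kcnj13, an inward rectifier of the retinal pigment epithelium and choroid plexus, and for Kcnk5, an acid-sensitive tandem-pore channel of epithelia. Families differed in how many of their members choroid listed: 6 of 12 inward rectifiers and 5 of 9 tandem-pore channels, but 1 of 8 silent subunits and 1 of 6 calcium- or sodium-activated channels. The BK auxiliary subunit gene Kcnmb1 and the auxiliary genes Kcne3 and Kcne4 were listed in no tissue.

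**Figure D1:**
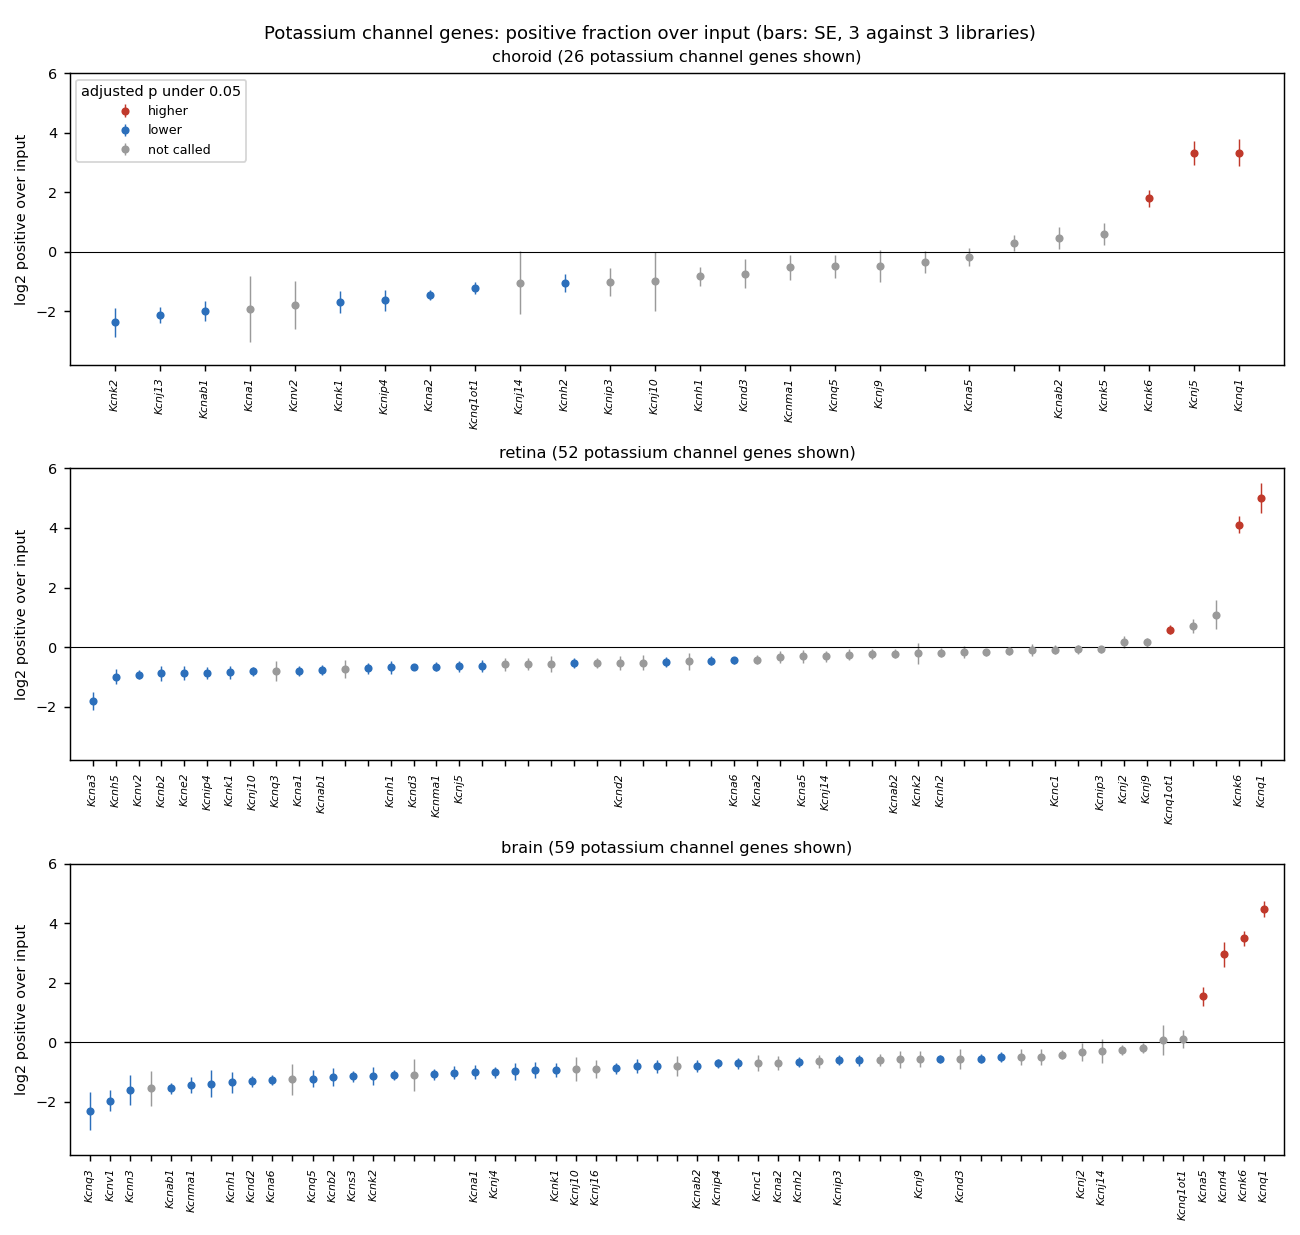
Log2 fold change of the positive over the input fraction (vertical axis, bars SE, 3 against 3 libraries) of the potassium channel genes shown for choroid, retina and brain, 1 panel per tissue, with genes ordered by that value; red points were called higher and blue points lower at an adjusted p under 0.05, and grey points were not called. Kcnq1 and Kcnk6 stand among the highest in all 3 panels, and blue points number 8 of 26 in the choroid panel, 20 of 52 in that of retina and 33 of 59 in that of brain. Genes not reported by name are left out, and labels are given for genes named in the text.

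In each tissue few potassium channel genes were higher in the positive fraction than in the input, and more were lower. Choroid had 3 of 29 called higher, where 21.1% of all genes tested were, and 10 called lower, against 20.9% of all genes. In retina 3 of 54 were called higher, against 18% of all genes, and 21 lower, against 13.7%. In brain 4 of 62 were higher, against 21.2%, and 34 lower, against 18.3%. Median log2 fold changes of the potassium channel genes were -0.98 in choroid, -0.49 in retina and -0.79 in brain, beside -0.03, -0.01 and -0.07 over all genes tested. A call means an adjusted p under 0.05 in edgeR's quasi-likelihood test with Benjamini-Hochberg adjustment over all genes of the tissue. These fits did not use the replicate as a block. In choroid, where same-numbered libraries deviated together, the blocked fit called more of the genes in both directions and is given below. The listing rule bears on the counts and the medians above, because a gene can enter a table through 1 fraction alone. Choroid had 20 of its 29 genes listed through the input alone, as were 4082 of all 11718 choroid genes. Of the 20, 7 were called lower, where 32.7% of all such genes were. Retina had 13, with 3 called lower, against 12.0%, and brain had 0. Since choroid and retina inputs are deeper than the positive libraries, such a gene need not be lower in CPM. Through the positive fraction alone came Kcnj5 and Kcnq1 in choroid, Kcnk6 and Kcnq1 in retina, and 14 genes in brain with Kcna5, Kcnk6, Kcnn4 and Kcnq1 among them. Of all genes listed that way 95.0% in choroid, 99.7% in retina and 55.1% in brain were called higher, so the rule favoured those calls, and Kcnk6 in choroid and Kcnq1ot1 in retina were the called-higher genes that met the minimum in both fractions. Among genes that met it in both, 1 of 7 was higher and 3 lower in choroid, where 30.1% and 14.8% of all such genes were. In retina 1 of 39 was higher and 18 lower, against 17.2% and 14.3%, and in brain 0 of 48 higher and 29 lower, against 16.7% and 19.9%. Median log2 fold changes of these potassium channel genes were -0.29 in choroid, -0.44 in retina and -0.75 in brain. Medians over all genes that met it in both are not given here. Summed over the protein-coding members, potassium channel RNA was 511.8 ± 97.4 CPM in positive and 911.0 ± 34.2 CPM in input libraries of choroid (SD, n = 3 each). The sums were 4937 ± 862 and 6891 ± 214 CPM in retina, and 3018 ± 382 and 5101 ± 675 CPM in brain, so retina held the most in both fractions and choroid the least.

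Across the tissues, 5 protein-coding members were higher in at least 1, namely Kcnq1, Kcnk6, Kcnj5, Kcna5 and Kcnn4, and 48 were lower in at least 1. The 3 that were lower in choroid, retina and brain alike were Kcnab1, Kcnip4 and Kcnk1. Another 19 were called in no tissue. Kcnj5 was the 1 protein-coding gene called in both directions. The non-coding Kcnq1ot1 was lower in choroid and higher in retina. Matching cross-tissue counts for the full gene set are not given here, so whether these counts depart from it was not tested. Within a single tissue, the share of all tested genes called lower ran from 13.7% (retina) to 20.9% (choroid).

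Kcnq1, the pore subunit of the slow delayed rectifier of heart and epithelia, lies on chromosome 7 at 143107254 to 143427042 of build mm10, plus strand. In choroid it had 74.7, 27.2 and 43.2 CPM in the positive libraries 421, 953 and 960, against 6.60, 2.61 and 5.13 CPM in the inputs (log2 fold change 3.33 ± 0.45 SE, adjusted p = 0.000773). Brain positive libraries had 14.9, 15.6 and 11.3 CPM, against 0.660, 0.499 and 0.758 CPM in the inputs (4.48 ± 0.27, adjusted p = 5.37e-05). In retina it had 12.8, 8.24 and 6.47 CPM in the positive fraction and 0.197, 0.0934 and 0.536 CPM in the inputs, where those values were 3, 2 and 10 counts (5.01 ± 0.49, adjusted p = 0.000124). Every positive library of each tissue was above every input library, and in retina the input level is near the counting limit. In each tissue Kcnq1 was listed through the positive fraction alone, so the listing rule favoured these calls. Divided by exon length, Kcnq1 ranked 2 of 29 among the potassium channel genes of the choroid positive fraction, at 11.8 CPM per kb, and 25 of 29 in the input, at 1.17 CPM per kb. In brain it ranked 37 of 62 and 61 of 62, and in retina 38 of 54 and 54 of 54. Kcnq1ot1 overlaps it on the other strand, and whether counting used the strand is not given in the sources used here. Retina inputs, with 1047, 1028 and 1053 CPM of Kcnq1ot1, had under 0.6 CPM of Kcnq1. Whether Kcnq1ot1 reads entered the Kcnq1 counts of any tissue was not tested.

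Kcnk6, which encodes TWIK-2, a tandem-pore background channel known for potassium efflux from macrophages, was the other gene higher in all 3 tissues (chromosome 7, 29221928 to 29232522, minus strand). Brain positive libraries had 63.9, 68.8 and 50.6 CPM, against 6.87, 5.17 and 4.01 CPM in the inputs (3.49 ± 0.25, adjusted p = 8.75e-05). Choroid had 39.0, 24.7 and 28.4 CPM in the positive fraction and 10.3, 9.61 and 6.64 CPM in the inputs (1.80 ± 0.28, adjusted p = 0.00146). In retina the values were 10.5, 8.09 and 13.3 CPM in positive and 0.525, 0.748 and 0.536 CPM in input libraries (4.12 ± 0.30, adjusted p = 1.80e-05). The groups did not overlap in any tissue, and per kb of exon Kcnk6 ranked 14 of 62 in the brain positive fraction and 56 of 62 in the input. Retina and brain listed it through the positive fraction alone, so the listing rule favoured those calls. Leukocyte and microglia markers moved the same way in all 3 tissues, and their part in the values of Kcnk6 and Kcnq1 was not tested. In brain positive libraries those markers summed to 2921 to 3782 CPM, against 225.7 to 379.1 CPM in the inputs, and in retina to 145.9 to 589.4 CPM against 24.0 to 28.5 CPM.

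The other 3 genes called higher moved in 1 tissue each: Kcnj5 in choroid, and Kcna5 and Kcnn4 in brain. Their promoters are shown because these are the members called higher that the RefSeq promoter table holds: the 250 bases before the RefSeq start of each (GRCm38.p6), 5′ to 3′ on the gene's strand, at chr9:32344345-32344594 (minus strand) for Kcnj5, chr6:126535556-126535805 (minus strand) for Kcna5 and chr7:24370013-24370262 (plus strand) for Kcnn4. Capitals mark CCACCC, a core of the GT box read by KLF factors.
Kcnj5: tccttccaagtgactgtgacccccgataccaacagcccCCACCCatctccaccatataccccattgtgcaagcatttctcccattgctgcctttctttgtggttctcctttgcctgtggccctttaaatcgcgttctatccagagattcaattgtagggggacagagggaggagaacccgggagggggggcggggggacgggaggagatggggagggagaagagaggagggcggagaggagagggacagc
Kcna5: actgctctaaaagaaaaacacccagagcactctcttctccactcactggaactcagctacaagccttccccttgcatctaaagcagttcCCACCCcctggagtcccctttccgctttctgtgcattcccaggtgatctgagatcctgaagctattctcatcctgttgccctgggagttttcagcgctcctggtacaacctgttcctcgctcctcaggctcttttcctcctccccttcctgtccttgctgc
Kcnn4: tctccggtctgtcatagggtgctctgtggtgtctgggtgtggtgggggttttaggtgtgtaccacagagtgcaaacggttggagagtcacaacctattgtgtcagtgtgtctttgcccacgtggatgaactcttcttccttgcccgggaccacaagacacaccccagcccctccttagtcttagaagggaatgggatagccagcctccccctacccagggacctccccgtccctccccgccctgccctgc
The motif stood 212 bases before the start of Kcnj5 and 161 bases before that of Kcna5, and these letters were in neither direction in the window of Kcnn4. Searched on both strands over windows of the same length, CCACCC was in 28.1% of 32851 mouse promoters and in 39 of the 73 promoters (53.4%) of the 50 potassium channel genes that the table holds, a motif added to the search after the sequences had been seen. The other motifs searched, none of which overlapped it in these windows, were the ETS core CCGGAAG, in 6.91% of all promoters and 1.37% of those of the potassium channel genes, the SOX core AACAAT (9.42% and 6.85%) and the GATA core AGATAA (9.99% and 4.11%).

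Kcnj5 encodes GIRK4, an inward rectifier opened by G protein subunits and best known from the heart atrium (chromosome 9, 32314783 to 32344237, minus strand). In choroid it had 34.3, 23.5 and 25.0 CPM in the positive libraries 421, 953 and 960, against 4.35, 1.98 and 1.91 CPM in the inputs (3.32 ± 0.39, adjusted p = 0.000397). Retina went the other way, with 10.2, 16 and 16.4 CPM in positive and 21.1, 22.3 and 23.6 CPM in input libraries (-0.65 ± 0.19, adjusted p = 0.0321), a result singled out after its values were seen. The retinal call was lost in 4 of the 6 fits that left out 1 library, with adjusted p of 0.0803, 0.104 and 0.119 without input 421, 953 or 960 and 0.0594 without positive 953, while the choroid call held in all 6. Choroid listed Kcnj5 through the positive fraction alone, so the listing rule favoured that call. Brain did not list the gene, so a difference in enrichment between tissues was not tested.

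Kcna5 encodes a Kv1 delayed rectifier of atrial and vascular muscle (chromosome 6, 126532551 to 126535555, minus strand). It had 26.2, 25.0 and 22.4 CPM in brain positive libraries and 10.1, 10.3 and 4.44 CPM in brain inputs (1.54 ± 0.31, adjusted p = 0.00836). Choroid values overlapped, with 7.94, 8.64 and 5.93 CPM in positive and 9.60, 9.61 and 6.51 CPM in input libraries (-0.18 ± 0.31, adjusted p = 0.670). Retina held the most in both fractions, 70.3, 105.9 and 138.4 CPM in positive and 122.1, 138.8 and 131.8 CPM in input libraries (-0.32 ± 0.21, adjusted p = 0.278). Kcnn4 encodes the intermediate-conductance calcium-activated channel of endothelium, red cells and lymphocytes (chromosome 7, 24370263 to 24385212, plus strand). Brain alone listed it, at 4.75, 5.79 and 4.25 CPM in the positive fraction and 0.360, 0.606 and 1.19 CPM in the inputs, which were 12, 17 and 11 counts (2.96 ± 0.42, adjusted p = 0.00201). The calls of Kcna5 and Kcnn4 in brain held without each single library. Both genes were listed there through the positive fraction alone, so the listing rule favoured these calls.

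**Figure D2:**
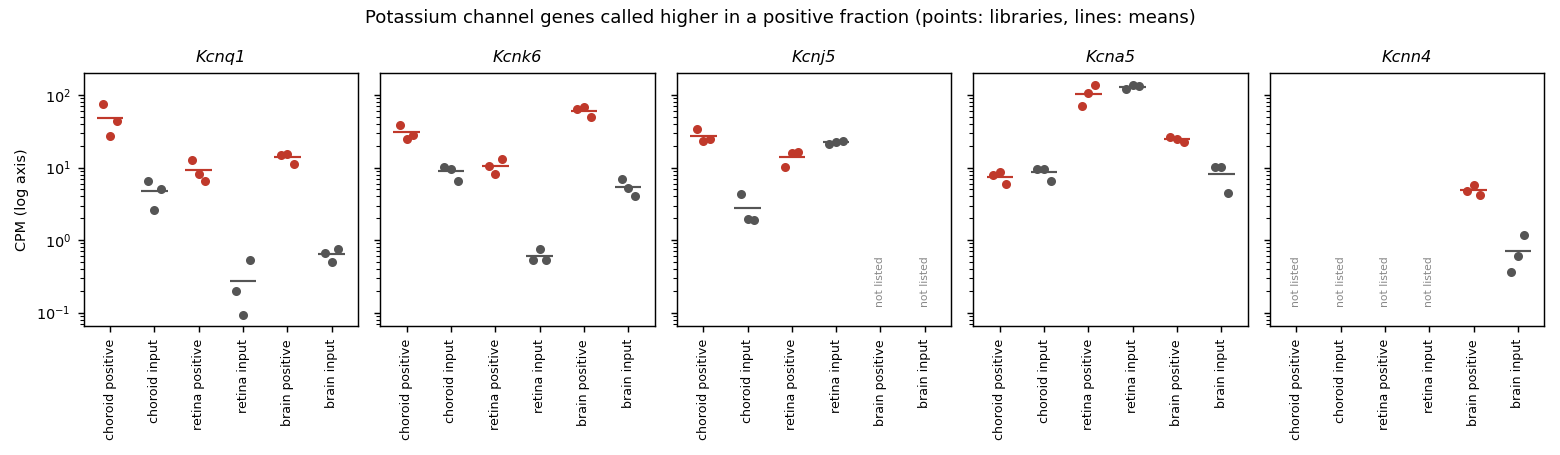
CPM (log axis) of the 5 protein-coding potassium channel genes called higher in at least 1 tissue, in each positive and input library of choroid, retina and brain. Positive libraries of Kcnq1 and Kcnk6 sit above the inputs in every tissue, those of Kcnj5 in choroid and below the inputs in retina, and those of Kcna5 and Kcnn4 in brain.

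In choroid the most abundant potassium channel transcript per kb of exon was lower in the positive fraction than in the input. Kcnj13 had 44.3, 39.5 and 80.1 CPM in positive libraries 421, 953 and 960, against 210.2, 234.2 and 266.3 CPM in the inputs (-2.13 ± 0.28, adjusted p = 0.000611). It still ranked 1 of 29 per kb of exon in both fractions, at 43.0 CPM per kb in the positive and 186.5 CPM per kb in the input fraction. Markers of the retinal pigment epithelium, where Kcnj13 is known to work, were lower as well, 5 of 5 listed with a median log2 fold change of -2.10; their sum was 3322 to 7333 CPM in positive and 13130 to 21250 CPM in input libraries, and their part in the result was not tested. Gigyf2, the gene on the opposite strand that overlaps Kcnj13, did not pass the test (-0.24, adjusted p = 0.253).

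Other choroid genes called lower included voltage-gated and background channels and their partners. Of the 10 called lower, 3 met the listing minimum in both fractions, namely Kcnj13, Kcna2 and Kcnq1ot1. The other 7 were listed through the input alone, with Kcnk2, Kcnk1, Kcnab1, Kcnip4 and Kcnh2 among them. Of all choroid genes listed that way 32.7% were called lower. The tandem-pore channels Kcnk2, a mechanosensitive background channel, and Kcnk1, the founding member of their class, changed by -2.37 ± 0.48 (adjusted p = 0.00517) and -1.69 ± 0.38 (adjusted p = 0.00872) on the log2 scale. Kcnk2 had 2.04, 1.85 and 1.27 CPM in positive and 5.40, 14.0 and 8.48 CPM in input libraries. Kcna2, a Kv1 subunit of axons, had 58.5, 41.4 and 48.3 CPM in positive and 139.8, 131.9 and 136.9 CPM in input libraries (-1.46 ± 0.17, adjusted p = 0.000410). Of the auxiliary subunits, Kcnab1, a cytoplasmic partner of Kv1 channels, changed by -2.0 ± 0.33 (adjusted p = 0.00201) and Kcnip4, a calcium-binding partner of Kv4 channels, by -1.63 ± 0.36 (adjusted p = 0.00709). Kcnq1ot1, known for silencing its imprinted neighbours, had 86.7, 124.7 and 142.0 CPM in positive and 269.4, 273.1 and 274.8 CPM in input libraries (-1.21 ± 0.20, adjusted p = 0.00211). Kcnh2, the ERG channel, was also lower (-1.03 ± 0.30, adjusted p = 0.0247), but lost its call without any 1 of 4 libraries, positive 960 and input 421 being the exceptions (adjusted p 0.0548 to 0.0843).

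Several choroid genes that did not pass the test differed widely between replicates, in both fractions. Kcnj14, an inward rectifier abundant in retina, had 1.82, 13.0 and 50.4 CPM in positive and 6.67, 36.2 and 84.7 CPM in input libraries (-1.03 ± 1.05, adjusted p = 0.452). Kcnv2, a silent subunit of photoreceptors, had 1.82, 4.63 and 20.4 CPM in positive and 10.6, 26.1 and 49.3 CPM in inputs (-1.79 ± 0.81, adjusted p = 0.108). Both were lowest in replicate 421 and highest in 960, and the summed photoreceptor markers had the same order, 110.1, 562.8 and 1748 CPM in positive and 313.0, 1802 and 4116 CPM in input libraries. Kcnj10, the inward rectifier of glia, went the opposite way, with 36.5, 5.87 and 11 CPM in positive and 91.3, 8.25 and 8.68 CPM in inputs (-0.98 ± 0.99, adjusted p = 0.448). Replicate 421 was also the high one for the axonal Kv1 subunit Kcna1, at 18.4, 2.47 and 2.54 CPM in positive and 80.3, 7.31 and 6.18 CPM in input libraries, and for the summed oligodendrocyte markers, at 1518, 96.9 and 158.1 CPM in positive and 5185, 197.8 and 293.5 CPM in input libraries. The part of these cells in the values was not tested.

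Same-numbered choroid libraries deviated together, so the fit with the replicate as a block applies to this tissue. It called 5 potassium channel genes higher and 15 lower, where it called 27.5% of all genes higher and 29.1% lower. Kcnab2, another Kv1 partner, had 30.4, 38.9 and 50.0 CPM in positive and 15, 32.2 and 38.7 CPM in input libraries, without a call in the unblocked fit (0.47 ± 0.35, adjusted p = 0.315) and called higher in the blocked one (adjusted p = 0.0352). Kcnk5 had 47.0, 29.6 and 22.5 CPM in positive and 32.4, 18.1 and 15.5 CPM in inputs (0.60 ± 0.36, adjusted p = 0.207) and was likewise called higher with the block (adjusted p = 0.0186). With the block Kcnj14 (adjusted p = 0.00126), Kcnv2 (adjusted p = 0.000236) and Kcna1 (adjusted p = 0.000211) were called lower, as were Kcnh1 and the Kv4 partner gene Kcnip3. The BK channel gene Kcnma1 (-0.52 ± 0.42, adjusted p = 0.347) and the Kv7 subunit gene Kcnq5 (-0.48 ± 0.38, adjusted p = 0.329) were not called in the unblocked fit. A fit without both libraries of replicate 421, chosen after the data had been seen, called Kcnv2 (adjusted p = 0.0463) and Kcna1 (adjusted p = 0.0449) lower, and no longer called Kcnh2 (adjusted p = 0.0699).

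In retina Kcnj14, Kcnv2 and Kcnab2 were among the most abundant potassium channel transcripts in both fractions. Per kb of exon, Kcnj14 led at 269.5 CPM per kb in the positive fraction and 333.5 CPM per kb in the input, while Kcnv2 stood at 84.0 and 159.6 and Kcnab2 at 74.7 and 87.8 CPM per kb. Kcnv2 had 372.1, 397.8 and 517.0 CPM in positive libraries 421, 953 and 960, against 769.7, 833.3 and 842.2 CPM in the inputs (-0.93 ± 0.15, adjusted p = 0.00199). Its groups did not overlap, and its call held without each library. Kcnj14 was not called, with 532.6, 751.2 and 913.0 CPM in positive and 875.2, 961.1 and 882.3 CPM in input libraries (-0.31 ± 0.19, adjusted p = 0.237). Summed photoreceptor markers were 22770 to 38710 CPM in positive and 39920 to 41550 CPM in input libraries, with a median log2 fold change of -0.43 over 7 genes.

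The lowest ratio in retina was that of Kcna3, a Kv1 channel of lymphocytes, microglia and neurons. It had 4.30, 1.59 and 3.05 CPM in positive and 9.52, 10.7 and 11.5 CPM in input libraries (-1.82 ± 0.30, adjusted p = 0.00250). Kcna3 was listed through the input alone, as were 13 of the potassium channel genes in retina. Of these 3 were called lower, Kcna3 among them, against 12.0% of all genes listed that way. By family, 4 of 6 Kv1 subunits fell, beside 4 of 9 inward rectifiers, 2 of 4 Kv3 and 2 of 5 EAG, ERG or ELK subunits, 3 of 9 auxiliary subunits and 1 of 5 tandem-pore channels. Over all retinal genes 13.7% were called lower, and differences between these small families were not tested. Kcna1 changed by -0.80 ± 0.16 (adjusted p = 0.00702) and Kcnab1, its partner, by -0.77 ± 0.16 (adjusted p = 0.00763). Kcnj10, in retina the channel of Muller glia, had 42.0, 41.1 and 56.5 CPM in positive and 78.4, 81.2 and 86.7 CPM in inputs (-0.81 ± 0.14, adjusted p = 0.00340), and 4 of 5 glial markers fell with it (median -0.83). Kcnma1 changed by -0.67 ± 0.15 (adjusted p = 0.0117), a call lost without input 960 (adjusted p = 0.0618). Another 5 genes among the 10 lowest kept their sign but lost the call when certain single libraries were left out: Kcnip4 (-0.87 ± 0.19, adjusted p = 0.00936) without positive 953, Kcnh5 (-1.0 ± 0.25, 0.0166), an EAG channel, without positive 953 or input 960, Kcnk1 (-0.85 ± 0.21, 0.0179) without positive 953, input 953 or input 960, Kcne2 (-0.87 ± 0.23, 0.0207), an auxiliary subunit of ERG and Kv7 channels, without positive 953 or any input, and Kcnb2 (-0.88 ± 0.25, 0.0298), a Kv2 subunit, without any library but positive 960. Adjusted p in those fits ran from 0.0502 to 0.115.

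Kcnq1ot1 was the third retinal member called higher, with 1466, 1867 and 1350 CPM in positive and 1047, 1028 and 1053 CPM in input libraries (0.58 ± 0.15, adjusted p = 0.0180). The fraction groups did not overlap, yet the call was lost without any 1 of the inputs (adjusted p 0.0814 to 0.0901). Members expressed at high levels that passed no test in retina included Kcnab2 (333.8, 417.3 and 499.5 CPM in positive and 474.9, 492.2 and 502.0 CPM in inputs, -0.23 ± 0.15, adjusted p = 0.267), the fast Kv3 subunit Kcnc1 (140.5, 185.3 and 207.9 against 177.5, 180.8 and 209.2 CPM, -0.09 ± 0.15, adjusted p = 0.685) and Kcna2 (103.9, 114.3 and 148.2 against 161.5, 151.7 and 178.3 CPM, -0.42 ± 0.15, adjusted p = 0.0551). Kcnj2, the strong inward rectifier of brain capillary endothelium, had 13.2, 9.04 and 9.70 CPM in positive and 9.98, 8.60 and 10.0 CPM in input libraries (0.16 ± 0.20, adjusted p = 0.574). The number of retinal genes called depended on the replicates, with 11, 9 and 7 lower without input 421, 953 or 960, where 5.74%, 5.33% and 4.74% of all genes were. Without positive 953, 11 were lower, against 6.92% of all genes, and without positive 960, 5 were higher and 30 lower, against 25% and 21.4%.

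In brain the genes called lower spread over nearly every family: 6 of 7 tandem-pore channels, 5 of 7 silent subunits, 5 of 8 auxiliary subunits, 4 of 6 calcium- or sodium-activated channels, 3 of 4 EAG, ERG or ELK subunits, 3 of 5 Kv7, 2 of 5 Kv1, 2 of 4 Kv3 and 1 of 3 Kv4 subunits. Inward rectifiers had 2 of 10, near the 18.3% of all brain genes called lower. The families are small, and differences between them were not tested. Kcnv1, a silent subunit of cortical neurons, had 11.1, 5.96 and 16.2 CPM in positive libraries 421, 953 and 960, against 48.1, 43.3 and 38.2 CPM in inputs (-1.96 ± 0.35, adjusted p = 0.00479). Kcnab1 had 38.5, 31.0 and 42.8 CPM in positive and 123.0, 110.0 and 93.5 CPM in input libraries (-1.54 ± 0.18, adjusted p = 0.000883). Kcnma1 had 22.4, 16.6 and 24.1 CPM in positive and 68.8, 63.8 and 38.1 CPM in inputs (-1.44 ± 0.26, adjusted p = 0.00568). No positive library of these genes reached an input library. The A-type Kv4 subunit Kcnd2 (-1.31 ± 0.19, adjusted p = 0.00220), the Kv1 subunit Kcna6 (-1.27 ± 0.18, adjusted p = 0.00174) and the silent subunit Kcns3 (-1.15 ± 0.19, adjusted p = 0.00366) also kept their call without each library. The EAG channel Kcnh1 (-1.35 ± 0.37, adjusted p = 0.0252), Kcnq5 (-1.22 ± 0.29, adjusted p = 0.0165), Kcnb2 (-1.16 ± 0.30, adjusted p = 0.0210) and Kcnk2 (-1.13 ± 0.29, adjusted p = 0.0205) did not: Kcnh1 and Kcnb2 lost it without any library but input 960, and Kcnq5 and Kcnk2 without positive 421 or 953 (adjusted p 0.0544 to 0.0969 in these fits). Neuron markers fell in 5 of 7 cases (median -0.72) and oligodendrocyte markers in 5 of 5 (median -1.86).

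The number of brain genes called also depended on single libraries. In input 960, 17 of the 62 genes stood more than 2-fold below the mean of inputs 421 and 953 and 2 more than 2-fold above it (median log2 difference -0.50, range -2.68 to 1.30), while between 421 and 953 no gene differed by so much (0 lower and 0 higher). Over all 12919 genes 1506 were that much lower and 1450 higher in input 960. Without it, 4 potassium channel genes were called higher, against 36.1% of all genes, and 54 lower, against 35.9%, with all 34 of the first count among them. Leaving out positive 421 or 953 instead gave 10 and 12 lower, against 7.78% and 8.48% of all genes, and leaving out input 421 or 953 gave 17 and 18, against 11.5% in both. The fit with the replicate as a block, which the brain numbers did not bear out as pairs, gave 19 lower, against 12.9% of all genes, with 18 of them shared.

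**Figure D3:**
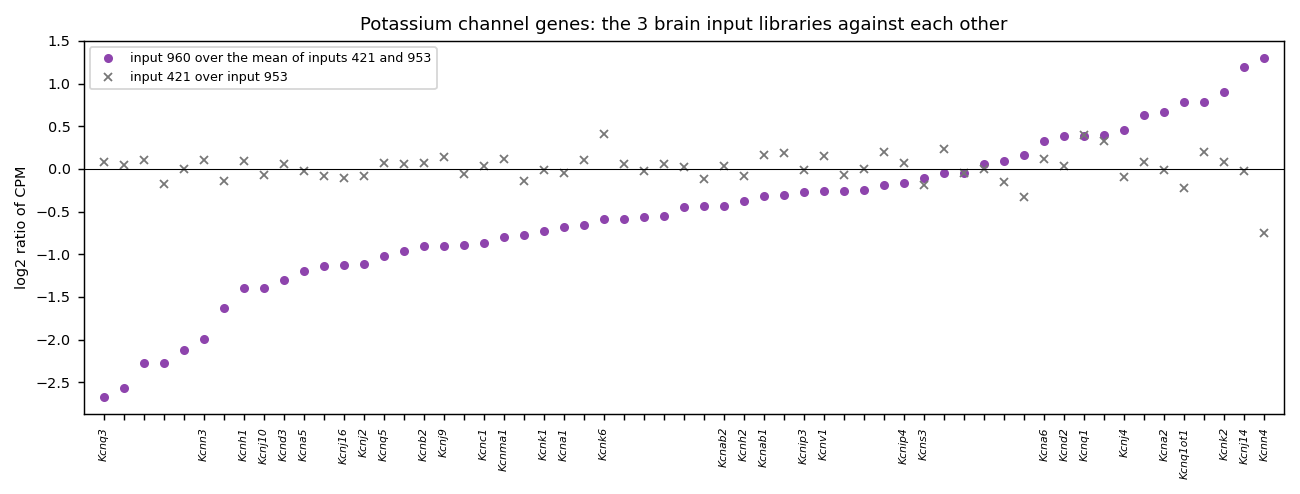
Log2 ratio of CPM (vertical axis) between brain input libraries for 59 of the 62 listed potassium channel genes, ordered by the ratio of input 960 to the mean of inputs 421 and 953 (circles); crosses give input 421 over input 953. The circles run from -2.68 to 1.30, with 15 genes below -1 and 2 above 1, and no cross (0) lies beyond either bound.

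For several channels known from glia and vessels the call turned on that library. Kcnj10 had 99.9, 118.8 and 175.4 CPM in brain positive and 302.6, 317.5 and 118.1 CPM in input libraries (-0.91 ± 0.40, adjusted p = 0.115), and without input 960 it was called lower (adjusted p = 0.00172). Its partner Kcnj16, at 18, 20.9 and 23.4 CPM in positive and 45.4, 49.0 and 21.7 CPM in inputs (-0.91 ± 0.31, adjusted p = 0.0552), was called lower without that input too (adjusted p = 0.000161). The same held for Kcnj2, with 11.6, 12.0 and 12.3 CPM in positive and 17.5, 18.5 and 8.34 CPM in inputs (-0.32 ± 0.30, adjusted p = 0.434; without it 0.00232). In all 3 genes input 960 was the lowest of the inputs. Kcnn3, the small-conductance calcium-activated channel of endothelium and neurons, had 4.50, 3.68 and 5.64 CPM in positive and 19.2, 17.8 and 4.66 CPM in input libraries (-1.61 ± 0.50, adjusted p = 0.0405). Its groups overlapped through input 960, and the call was lost without any 1 of the other 5 libraries (adjusted p 0.0871 to 0.141). The lowest ratio in brain, that of the M-current subunit Kcnq3, was of the same kind, at 3.17, 3.01 and 4.17 CPM in positive and 24.3, 22.9 and 3.68 CPM in inputs (-2.31 ± 0.63, adjusted p = 0.0259), and was singled out after its values were seen; its call too was lost without any library but input 960 (adjusted p 0.0648 to 0.104).

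Genes with high levels in brain included several that were not called. Kcna2 had 279.3, 257.6 and 345.2 CPM in positive and 393.8, 396.7 and 629.2 CPM in inputs (-0.69 ± 0.24, adjusted p = 0.0577), and Kcnc1 had 217.2, 205.6 and 245.6 CPM in positive and 428.3, 419.9 and 232.9 CPM in inputs (-0.69 ± 0.25, adjusted p = 0.0679). Without input 960 both were called lower, Kcna2 at -0.43 (adjusted p = 0.0222) and Kcnc1 at -0.93 (adjusted p = 0.000173). Kcnq1ot1 had 187.4, 235.7 and 301.8 CPM in positive and 167.1, 194.6 and 310.6 CPM in inputs (0.11 ± 0.29, adjusted p = 0.790), a value whose sign turned in some alternative fits. Per kb of exon Kcnab2 led, at 51.9 CPM per kb in the positive and 89.5 CPM per kb in the input fraction, while the inward rectifier Kcnj4 (26.4 and 52.9), Kcna1 (25.3 and 50.8) and Kcnk1 (25.2 and 47.8 CPM per kb) also ranked high.

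Genes that work beside potassium channels, namely channel partners, sodium pumps, cation-chloride cotransporters, HCN channels and endothelial calcium entry channels, were read from a separate list. In choroid 2 of 21 were called higher and 9 lower, where 21.1% and 20.9% of all genes were. The counts were 4 and 8 of 25 in retina, against 18% and 13.7%, and 2 and 13 of 28 in brain, against 21.2% and 18.3%. Slc12a7, a potassium-chloride cotransporter, was higher in all 3 tissues. Brain positive libraries had 45.6, 49.4 and 45.1 CPM, against 6.54, 6.35 and 5.96 CPM in inputs (2.89 ± 0.14, adjusted p = 4.11e-05). In retina it had 55.3, 33.6 and 38.8 CPM in positive and 9.58, 12.0 and 14.1 CPM in inputs (1.83 ± 0.22, adjusted p = 0.000389). Choroid showed the least, 160.2, 105.6 and 117.0 CPM against 83.7, 74.7 and 69.8 CPM (0.75 ± 0.19, adjusted p = 0.0149), and lost the call without input 953 (adjusted p = 0.0612). Trpv4, a calcium entry channel of endothelium that is known to open calcium-activated potassium channels, had 19.4, 20.2 and 18.8 CPM in brain positive and 3.09, 3.14 and 3.68 CPM in brain input libraries (2.57 ± 0.17, adjusted p = 7.26e-05). It was also called higher in retina (1.33 ± 0.41, adjusted p = 0.0377), a call lost without any library but positive 960 (adjusted p 0.0631 to 0.116). In choroid it was called lower (-0.75 ± 0.19, adjusted p = 0.0141), a value singled out after it was seen. The call of Slc12a4, a cotransporter like Slc12a7, in retina (0.66 ± 0.21, adjusted p = 0.0393) was lost without any library but positive 960 (adjusted p 0.0754 to 0.129). Pkd2, a cation channel gene, was higher in retina (0.62 ± 0.13, adjusted p = 0.00914).

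Most of the partner genes that passed the test were lower. In choroid the lowest were Lgi1 (-2.20 ± 0.24, adjusted p = 0.000286) and Cntnap2 (-2.12 ± 0.25, adjusted p = 0.000437), both of which sit with axonal Kv1 channels, and the sodium pump subunit Atp1b1 (-1.90 ± 0.19, adjusted p = 0.000231). In retina the lowest included the pacemaker channel Hcn4 (-1.06 ± 0.32, adjusted p = 0.0333) and the Kv4 partner Dpp10 (-0.81 ± 0.20, adjusted p = 0.0158). The calls of Hcn4 and Dpp10 were lost without positive 953 or any 1 of the inputs (adjusted p 0.0543 to 0.124). In brain the lowest were Trpc6 (-1.32 ± 0.33, adjusted p = 0.0198), lost without positive 421 (adjusted p = 0.0727) or 953 (adjusted p = 0.0864), the chloride-loading cotransporter Slc12a2 (-1.30 ± 0.19, adjusted p = 0.00205) and Dpp10 (-1.15 ± 0.24, adjusted p = 0.00887).

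Whether enrichment differed between the vascular beds was tested for the 22 genes listed in all 3 tissues, as the difference between log2 ratios of positive to input in 1 fit of the 18 libraries. These differences share libraries, so each is given on its own. Choroid minus brain gave 1 gene higher, where 12.2% of all 10505 genes were, and 3 lower, against 12.3%. Retina minus brain gave 0 higher, against 8.33%, and 1 lower, against 4.97%. Choroid minus retina gave 0 higher, against 10.9%, and 7 lower, against 18%. Where edgeR called 0 higher, 4 genes in retina minus brain and 0 in choroid minus retina had a positive difference at an unadjusted p under 0.05, and DESeq2 called 2 and 0. Over all genes the median difference was 0.08 for choroid minus brain, 0.20 for retina minus brain and -0.07 for choroid minus retina, and over the potassium channel genes it was -0.44, 0.61 and -0.76.

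Kcnk6 was less enriched in choroid than in either of the other tissues, by -1.51 ± 0.35 against brain (adjusted p = 0.00461) and by -2.28 ± 0.40 against retina (adjusted p = 0.000560). Its input level, scaled within each tissue, was 6.64 to 10.3 CPM in choroid, 0.525 to 0.748 CPM in retina and 4.01 to 6.87 CPM in brain. Kcna5 was less enriched in choroid (-1.52 ± 0.42, adjusted p = 0.0141) and in retina (-1.70 ± 0.37, adjusted p = 0.00736) than in brain. Kcnq1 did not pass the test in any of these differences, at -0.98 ± 0.60 for choroid minus brain (adjusted p = 0.243) and -1.66 ± 0.69 for choroid minus retina (adjusted p = 0.0846). With the replicate as a block, which applies to choroid, Kcnq1 was called for choroid minus retina (adjusted p = 0.0447) and Kcna2 for choroid minus brain (-0.64, adjusted p = 0.0448; unblocked -0.61, adjusted p = 0.128), as was Kcnip3 for choroid minus retina, and Kcnh2 was no longer called there (adjusted p = 0.0675). The 1 gene with the reverse sign was Kcnab2, at 1.42 ± 0.39 for choroid minus brain (adjusted p = 0.0143). Its log2 ratio was 0.47 in choroid without a call and -0.79 ± 0.20 in brain with one (adjusted p = 0.0187) that was lost without positive 421, positive 953, input 421 or input 953 (adjusted p 0.0636 to 0.0833). The difference was lost without choroid positive 960 (adjusted p = 0.0708).

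Kcnq1ot1 was lower in choroid than in brain (-1.15 ± 0.34, adjusted p = 0.0194) and than in retina (-1.77 ± 0.34, adjusted p = 0.00108), and the difference from brain lost its call without brain positive 960 (adjusted p = 0.0600). Against retina, choroid ratios were also lower for Kcnk2 (-2.12 ± 0.65, adjusted p = 0.0218), Kcnab1 (-1.21 ± 0.35, adjusted p = 0.0160), Kcna2 (-1.01 ± 0.28, adjusted p = 0.0141) and Kcnh2 (-0.83 ± 0.30, adjusted p = 0.0474). In retina itself the ratios of Kcnk2 and Kcnh2 were -0.22 and -0.19 without a call. Choroid listed Kcnk2, Kcnab1 and Kcnh2 through the input alone, and Kcnk2 was near the counting limit in its positive libraries. Leaving out 1 library could end further calls: Kcnk2 was lost without choroid input 953 or without positive 953 or 960 of choroid or retina (adjusted p 0.0522 to 0.0588), and Kcnab1 (adjusted p = 0.0576) and Kcna2 (adjusted p = 0.0595) without choroid positive 953. That of Kcnh2 was lost under 17 of 24 alternatives, with adjusted p up to 0.153.

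**Figure D4:**
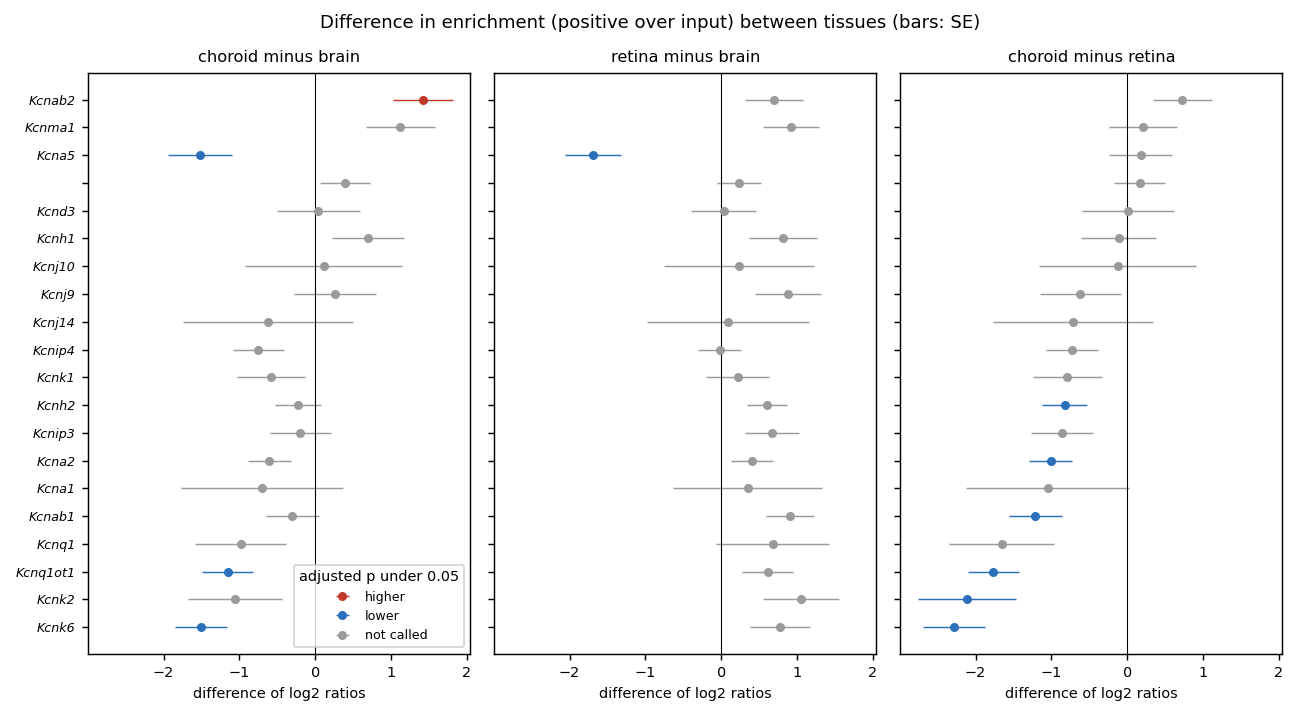
Differences in log2 enrichment (positive over input) between tissues, with standard errors, for 20 of the 22 potassium channel genes listed in choroid, retina and brain; red (higher) and blue (lower) points passed the test at an adjusted p under 0.05, and grey points did not. Kcnk6 and Kcna5 lie below 0 against brain in choroid, Kcnab2 above it, and 6 of the genes shown were called below 0 in choroid minus retina.

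The pulled-down RNA itself was compared between tissues in a fit of the 9 positive libraries over the same 10505 genes. Against brain, choroid had 2 of the 22 genes higher, where 23.1% of all genes were, and 20 lower, against 23.8%. Retina had 8 higher than brain, against 32.1%, and 9 lower, against 31.0%. Choroid had 2 higher than retina, against 32.9%, and 19 lower, against 39.1%. Inputs do not enter these comparisons, so a difference here is not a difference in enrichment. Whether these differences follow those between the whole tissues was not tested.

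Kcnq1 and Kcnk6 ordered the positive fractions of the tissues differently. Kcnq1 averaged 51.4 ± 26.0 CPM in choroid, 9.70 ± 3.40 in retina and 14.0 ± 2.24 in brain positive libraries (SD, n = 3 each), higher in choroid than in retina (2.44 ± 0.36, adjusted p = 5.11e-05) and brain (1.89 ± 0.34, adjusted p = 0.000526). Retina and brain did not differ beyond the test for it (-0.55, not called). Kcnk6 averaged 32.6 ± 8.10 CPM in choroid, 11.3 ± 2.71 in retina and 61.4 ± 9.16 in brain, so it was lower than brain in choroid (-0.90 ± 0.23, adjusted p = 0.00575) and in retina (-2.43 ± 0.24). Between choroid and retina it was higher in choroid (1.53 ± 0.24, adjusted p = 9.72e-05). Kcna5 averaged 7.96 CPM in choroid, 111.2 in retina and 24.6 in brain and differed in each comparison.

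Kcnj14 was the other gene higher in choroid than in brain (2.59 ± 0.70, adjusted p = 0.00896), from 23.1 ± 27.1 CPM in choroid and 3.54 ± 0.88 CPM in brain, and without choroid positive 960 the call was lost (adjusted p = 0.166). In retina it averaged 776.4 ± 202.6 CPM, 7.77 ± 0.79 above brain on the log2 scale, the largest difference among the 22 genes in that comparison. Inputs of Kcnj14, scaled within each tissue, averaged 333.5 CPM per kb of exon in retina, 15.65 in choroid and 1.641 in brain. Kcnq1ot1 (2.77), Kcna5 (2.18), Kcnma1 (1.61) and Kcnj9 (0.99), a G-protein-gated inward rectifier, were also higher in the retina than in the brain positive fraction. Retina was lower than brain in Kcnk2 (-3.16), Kcna1 (-1.87), Kcnj10 (-1.42), Kcnh1 (-1.26) and Kcna2 (-1.19).

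Most of the 22 genes were lower in the choroid positive fraction than in either of the others. Against brain the lowest included Kcnk2 (-4.35), Kcnj9 (-4.20), Kcna1 (-3.72), Kcnd3 (-3.71), a Kv4 subunit, and Kcnip3 (-3.44), a Kv4 partner. Against retina they included Kcnj9 (-5.19 ± 0.33, adjusted p = 4.25e-08), Kcnj14 (-5.18), Kcnd3 (-4.14) and Kcnma1 (-3.85). Kcnh1, at 0.02, was the 1 gene that choroid and retina did not separate. In Kcnk2, choroid averaged 1.83 CPM, which is near the counting limit of those libraries, retina 4.30 and brain 39.0.

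**Figure D5:**
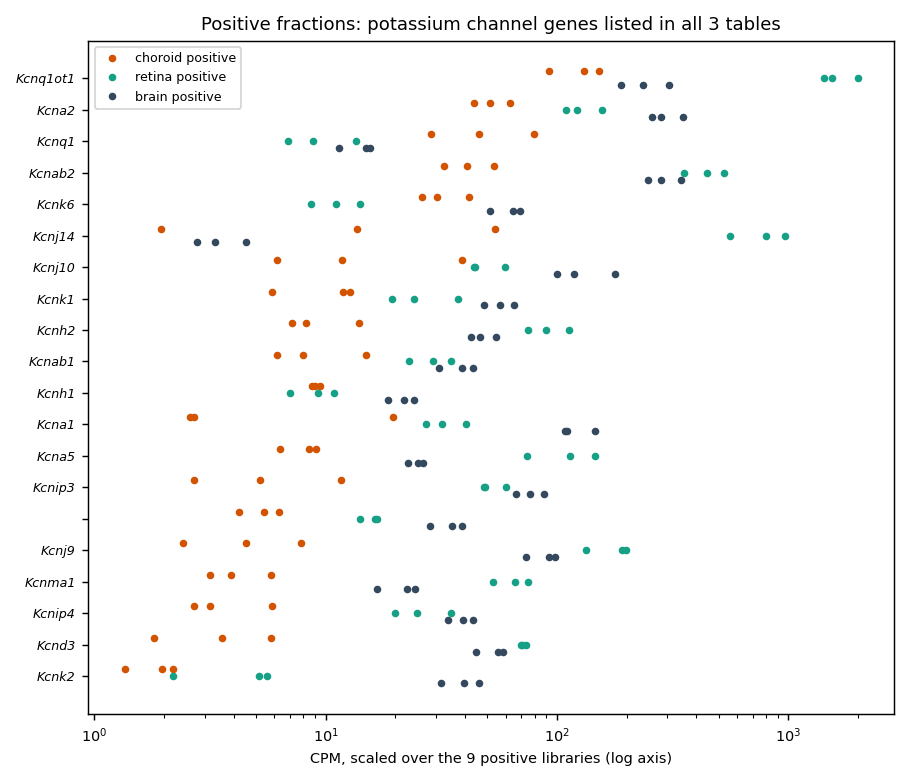
Level in each of the 9 positive libraries (CPM scaled over these libraries, log axis) of 20 of the 22 potassium channel genes listed in choroid, retina and brain, 1 point per library, coloured by tissue. Kcnq1 is highest in choroid, Kcnk6 in brain, and Kcnj14 and Kcna5 in retina. Inputs are not shown.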

How the data were processed

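RNA was sequenced from input and positive fractions of choroid, retina and brain of Tie2-cre+; NuTRAP+ mice, 3 libraries in each of 6 groups, with groups and replicate numbers read from the labels. The authors deposited 1 table per tissue, whose raw columns hold the expected counts per gene as the authors deposited them. In choroid 72.0% of those values were fractional, in retina 91.5% and in brain 90.2%, at a tolerance of 0.001, so values were rounded for testing. The normalized columns, which the authors deposited as log2 values, served in 1 alternative. A gene entered a table, per the file headers, once each library of either fraction had a raw value of 50 or more. DESeq and build mm10 are named in the submitters' processing notes, while aligner, counter and strand setting were not given in the sources used here. Genes under the listing minimum are missing, so depth could be summed over listed genes alone.

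Positive and input libraries of a tissue were compared by edgeR (version 4.0.16, R 4.3.3) with TMM scaling and the quasi-likelihood F test on 4 residual degrees of freedom. The filterByExpr step took out 0 genes. P-values were adjusted by Benjamini-Hochberg across the tissue's genes, and a gene was called when the adjusted p was under 0.05. Differences in enrichment came from a joint fit of the 18 libraries, with 12 residual degrees of freedom, and the 9 positive libraries had a fit of their own with 6, both over 10505 genes. These choices were checked on simulated counts of independent libraries with the same spread for every gene. That check does not cover paired libraries or single libraries that stand apart. CPM were scaled by TMM within each tissue, or over the 9 positive libraries where those are compared, and levels between genes are divided by union exon length (GENCODE vM21). Promoters are from RefSeq. Alternatives were DESeq2 1.42.0, limma 3.58.1 on the normalized values, other scalings, a minimum mean of 5 CPM, the 18-library fit, a replicate block and leaving out each library. Python 3.11.15 with pandas 2.3.3 and matplotlib 3.10.9 made the tables and figures.

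The members, the gene lists and the tests were chosen with earlier results of these data known. Per tissue the text names the 10 highest and 10 lowest log2 fold changes among called members whose fractions do not overlap, and the 4 uncalled members with the highest level. Per comparison between tissues it names the 6 highest and 6 lowest called members, and per tissue the 3 highest and 3 lowest called partner genes. A fixed set of channels of endothelium, glia and epithelium is named whatever its values. Some genes that these rules pick are not reported here. In choroid, deviations of same-numbered positive and input libraries correlated at 0.63, 0.27 and 0.53 across genes, so the numbers pair the samples there. Nothing beyond the label of biological replicate says what a number marks, and p-values measure the spread between these samples.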

Additional observations from a re-analysis of the deposited data

Results flagged for a closer look

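These 11 results were listed because the log2 enrichment of positive over input differed between tissues by a test of the difference itself, in 1 fit of the 18 libraries. In choroid minus brain, Kcna5 differed by -1.52, Kcnk6 by -1.51, Kcnq1ot1 by -1.15 and Kcnab2 by 1.42. In retina minus brain, Kcna5 differed by -1.70. In choroid minus retina, Kcnk6 differed by -2.28, Kcnk2 by -2.12, Kcnq1ot1 by -1.77, Kcnab1 by -1.21, Kcna2 by -1.01 and Kcnh2 by -0.83. Those of Kcnk6, Kcna5 and, for choroid minus retina, Kcnq1ot1 kept their call under every alternative run on them.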

How the results depend on the processing

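Over 135 results for named genes and 2024 recalculations, 1836 kept their direction and their side of the threshold, 122 lost the call, 41 gained one and 25 turned round, and 66 of 98 called results kept their call throughout. Leaving out 1 library moved the number of members lower in the positive fraction between 10 and 54 in brain, against 34 with all libraries, and between 7 and 30 in retina, against 21. Members higher in the retinal positive fraction then numbered 2 to 5, and members higher in the choroid than in the brain positive fraction 1 to 2. Differences in enrichment then numbered 0 to 2 higher and 2 to 6 lower for choroid minus brain, 0 to 1 higher for retina minus brain, and 0 to 1 higher and 4 to 8 lower for choroid minus retina. Scaling by library size alone gave 5 lower for choroid minus brain, and it put the median over all choroid genes at -0.26, against -0.03 with TMM. DESeq2 gave 2 higher for retina minus brain and no adjusted p for 1 member in 4 comparisons. The fit of all 18 libraries took only the 22 members listed in all 3 tissues. It called 13 of these lower in brain and 3 lower in retina, counts not comparable with 34 and 21. Shares of all genes in that fit are not given here. Kcnq1 passed for choroid minus retina under 6 alternatives, with adjusted p from 0.0257 to 0.0467, and missed under the others. The cause of these shifts was not tested.

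With the replicate number as a block, 5 members were higher in choroid and 19 lower in brain. It changed no call of a potassium channel gene in choroid other than those named with the choroid results. Kcnn3, Kcnq3, Kcnh1, Kcnq5 and Kcnab2 were among the genes that lost their brain calls under it. Same-numbered libraries correlated at 0.09, 0.07 and 0.01 in retina and at 0.19, 0.03 and 0.09 in brain. Such low values do not bear out a pairing there. Nor can they exclude one, since the input is a part of the same cleared lysate as the positive fraction.

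None of the results that turned round was called with all libraries. For Kcnj10, choroid minus brain was -0.21 with scaling by library size alone, and choroid minus retina was 0.22 with the replicate block and 0.84 without both choroid 421 libraries, an alternative chosen after seeing the data. Without those libraries Kcnma1 was -0.22 for choroid minus retina, where library size alone gave -0.054. Kcnq1ot1 was -0.076 in brain in the 18-library fit. Leaving out 1 library at a time gave, for positive over input, -3.65 to 0.28 for Kcna1 and -2.14 to 1.09 for Kcnj10 in choroid, -0.20 to 0.060 for Kcnc1, -0.014 to 0.27 for Kcnj2 and -0.42 to 0.081 for Kcnk2 in retina, and -0.083 to 0.42 for Kcnq1ot1 in brain. For differences in enrichment it gave -1.25 to 2.04 for Kcnj10 in choroid minus brain, -0.079 to 0.55 for Kcna2 in retina minus brain, and -1.27 to 2.02 for Kcnj10 and -0.074 to 0.59 for Kcnma1 in choroid minus retina.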
